A study of Mus musculus with 12 samples.

Results

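Hhipl2 and Glul are 2 of 21960 genes listed for PyMT mouse mammary tumors, and both were chosen by their lower level in anti-PD-1 than in IgG1 tumors, as listed by the study itself. The pair was taken by the gene symbol in the tables of all 12 tumors. Tumors arose in female C57BL/6 mice that carry the polyoma middle T oncoprotein under the MMTV promoter, which is active mainly in mammary epithelium. RNA was read from whole tumors, 1 library per tumor and 3 tumors in each of 4 groups. The IgG1 group received the isotype antibody and the anti-PD-1 group the antibody against PD-1, both at a first dose of 20 mg/kg and later doses of 10 mg/kg every 6 days until day 18, from a tumor diameter of 0.6 cm. The DOX/IgG1 and DOX/anti-PD-1 groups received doxorubicin at 5 mg/kg each week, followed by the respective antibody at 10 mg/kg, from a diameter of 1 cm. The labels give weekly treatment over 5 weeks for all groups, which differs from the 6-day interval of the monotherapy. Between groups with and without doxorubicin, the drug, the tumor size at the start, the first antibody dose and the schedule cannot be told apart.

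Glul encodes glutamine synthetase, which joins ammonia to glutamate and is the enzyme that makes glutamine in mammalian cells. It is high in astrocytes, in liver cells around the central veins, in skeletal muscle and in fat, and it is known as a target of beta-catenin in liver and of glucocorticoids in several tissues. Hhipl2 encodes a member of the family of Hhip, the membrane protein that binds Hedgehog ligands and dampens their signal. The function of Hhipl2 itself is little known.

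Both genes lie on the plus strand of chromosome 1. Glul (ENSMUSG00000026473) spans bases 153899944 to 153909723 and Hhipl2 (ENSMUSG00000053461) spans bases 183418215 to 183436808 in GENCODE vM21 on GRCm38, the build also called mm10. They are 29.5 megabases apart. The longest annotated transcript of Glul has 7 exons and 2792 bases, and that of Hhipl2 has 9 exons and 2525 bases. Hhipl2 has 2 start sites with a promoter window in RefSeq (GRCm38.p6) and Glul has 1. These windows are shown because both genes were low in the same group of tumors. Each runs from 250 bases before a start to 50 bases after it on the plus strand, and capitals mark matches to the motifs named next.

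Glul, chr1:153899679-153899978: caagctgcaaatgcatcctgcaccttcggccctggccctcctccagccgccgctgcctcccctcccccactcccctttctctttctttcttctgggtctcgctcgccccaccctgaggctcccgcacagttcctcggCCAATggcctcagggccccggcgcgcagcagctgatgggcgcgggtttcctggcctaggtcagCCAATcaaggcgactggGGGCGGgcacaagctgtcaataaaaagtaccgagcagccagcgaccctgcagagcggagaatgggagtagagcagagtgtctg

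Hhipl2, first start, chr1:183418220-183418519: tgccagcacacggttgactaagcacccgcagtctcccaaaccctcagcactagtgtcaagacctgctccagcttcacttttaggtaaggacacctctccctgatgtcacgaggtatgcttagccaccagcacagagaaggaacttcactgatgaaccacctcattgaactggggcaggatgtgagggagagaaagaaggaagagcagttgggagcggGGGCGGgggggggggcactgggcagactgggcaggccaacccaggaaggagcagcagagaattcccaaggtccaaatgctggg

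Hhipl2, second start, chr1:183418998-183419297: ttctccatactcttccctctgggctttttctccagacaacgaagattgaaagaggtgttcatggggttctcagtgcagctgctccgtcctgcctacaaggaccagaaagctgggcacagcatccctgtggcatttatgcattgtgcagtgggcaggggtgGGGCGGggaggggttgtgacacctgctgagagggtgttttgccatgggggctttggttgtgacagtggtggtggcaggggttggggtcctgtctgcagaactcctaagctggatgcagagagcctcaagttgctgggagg

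The motifs searched on both strands were the TATA box TATAAA, the CCAAT box CCAAT, the GC box GGGCGG, the E box CACGTG, the glucocorticoid receptor motif AGAACA, the TCF/LEF motif CTTTGA and the Gli motif GACCACCCA. The Glul window held CCAAT 113 and 50 bases before the start and GGGCGG 33 bases before it. Each Hhipl2 window held GGGCGG once, 33 bases before the first start and 90 bases before the second. Among 32851 promoter windows of the same length, 37.4% held the CCAAT box and 35.7% the GC box, so neither match is rare. The letters of the TATA box (13.6% of windows), the E box (7.15%), the glucocorticoid receptor motif (19.0%), the TCF/LEF motif (16.0%) and the Gli motif (0.253%) were not in the 3 windows. The Glul window had 64.33% G and C and 17 CG pairs, against medians of 52.67% and 7. The Hhipl2 windows had 57.33% and 56.67% G and C, with 5 and 3 CG pairs.

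The tables hold TPM, a share of all transcripts, on a log2 scale after adding 1, so the number of reads behind a value is unknown. Between 13856 and 15426 genes were above 0 per tumor. DOX/IgG1 replicate 1 had the fewest, 13856, and the lowest mean correlation with the other 11 tumors across genes, 0.937, where the other tumors had 0.943 to 0.960. Genes are not independent replicates in such a correlation. The header of its table carries an added word, and the headers of the 3 DOX/anti-PD-1 tables end in another number than the rest. What these marks mean is not given in the sources used here, so a difference in handling cannot be told apart from the treatment in DOX/anti-PD-1 tumors. The pair and the counts of called genes are given with and without DOX/IgG1 replicate 1, and the lists and marker sums only with it.

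The IgG1 tumors had 28.6, 10.4 and 50.4 TPM of Hhipl2, and the anti-PD-1 tumors had 7.01, 4.86 and 1.77 TPM. With doxorubicin, the DOX/IgG1 tumors had 80.8, 12.95 and 22.4 TPM and the DOX/anti-PD-1 tumors had 22.5, 37.9 and 22.1 TPM. All 3 anti-PD-1 tumors lay below each of the other 9 tumors, and the highest value belonged to DOX/IgG1 replicate 1. The group means were 38.7 ± 36.7 TPM (SD, n = 3) in DOX/IgG1, 29.8 ± 20.0 TPM in IgG1, 27.5 ± 9.02 TPM in DOX/anti-PD-1 and 4.55 ± 2.63 TPM in anti-PD-1 tumors. In this order the 3 upper groups overlapped with their neighbors, and anti-PD-1 overlapped with none. On the log2(TPM + 1) scale the means were 4.90 in DOX/IgG1, 4.79 in DOX/anti-PD-1, 4.70 in IgG1 and 2.34 in anti-PD-1 tumors, so that IgG1 and DOX/anti-PD-1 changed places.

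Of Glul, the IgG1 tumors had 138, 96.1 and 276 TPM and the anti-PD-1 tumors had 41.4, 29.2 and 36.8 TPM. The DOX/IgG1 tumors had 53.6, 330.0 and 333 TPM, and the DOX/anti-PD-1 tumors had 112, 157 and 489 TPM. Again the 3 anti-PD-1 tumors were the lowest of all 12, and DOX/IgG1 replicate 1, the highest tumor for Hhipl2, was the next lowest for Glul. The group means (± SD, n = 3) were 252 ± 206 TPM for DOX/anti-PD-1, 239 ± 160.45 TPM in DOX/IgG1, 170.2 ± 94.3 TPM in IgG1 and 35.8 ± 6.17 TPM in anti-PD-1 tumors. The 3 upper groups overlapped, while the anti-PD-1 tumors stayed below all of them and varied least. Fewer cells that express a gene and less RNA of it per cell cannot be told apart in whole tumors.

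**Figure D1:**
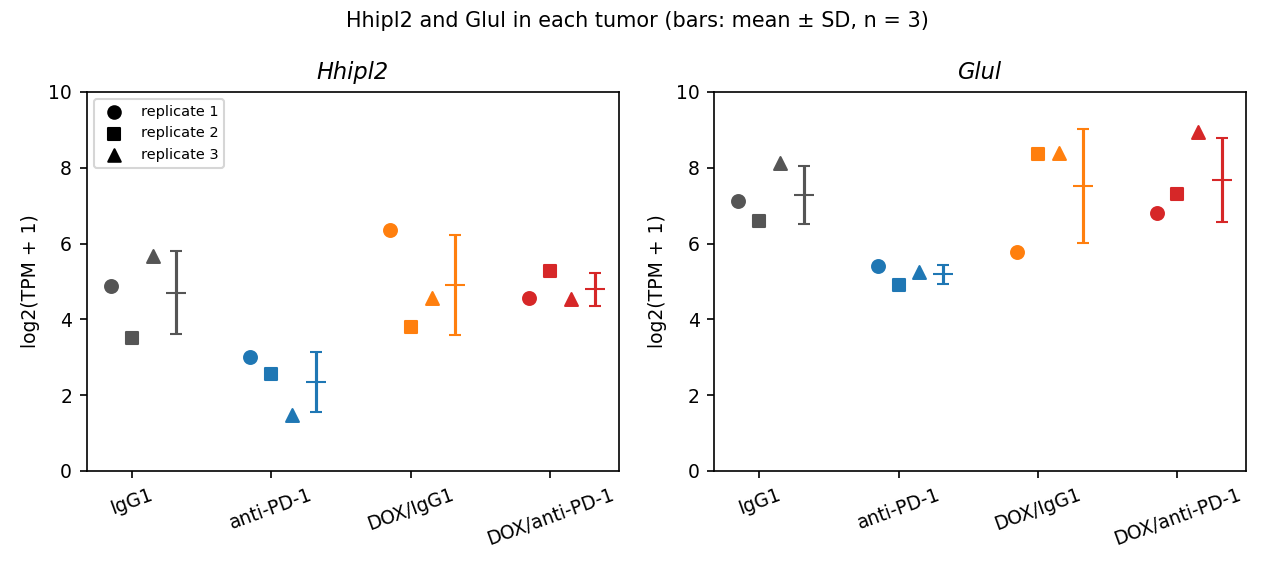
Level of Hhipl2 (left) and Glul (right) as log2(TPM + 1) in each of 12 tumors, by treatment group, with the replicate number as the marker and the mean ± SD of 3 tumors as the bar. The anti-PD-1 tumors are the lowest for both genes, and DOX/IgG1 replicate 1 is the highest for Hhipl2 and the lowest of its group for Glul.

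Glul was among the abundant genes of most tumors. Ranked by TPM among 21960 genes, it took place 115 in DOX/anti-PD-1 replicate 3 and place 361 in IgG1 replicate 3. In the anti-PD-1 tumors it took places 3683, 4869 and 4114. Hhipl2 was a gene of middle level, between place 1895 in DOX/IgG1 replicate 1 and place 12709 in anti-PD-1 replicate 3. Both genes were at 1 TPM or more in all 12 tumors, so both passed the minimum of 1 TPM in 3 tumors. The SD of log2(TPM + 1) over 12 tumors was 1.38 for Hhipl2 and 1.36 for Glul, against a median of 0.50 over 14735 genes. By this SD, they took places 328 and 350. The tumors on which the pair was chosen enter this SD, so nothing is read from these places.

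Because the pair was chosen on anti-PD-1 against IgG1, this difference is a description and was not tested. The mean of Hhipl2 in the anti-PD-1 tumors was 0.153 times that in the IgG1 tumors, a log2 fold change of -2.35. For Glul the ratio was 0.210 and the log2 fold change -2.09. Of 13692 genes, 10 had a lower log2 fold change than Hhipl2 and 18 a lower one than Glul. In both genes the groups lay apart, as they did in 9.88% of all genes tested, from which nothing is read here. With limma on all genes, 0 genes (0%) passed the limits of the adjusted p (below 0.1) and of the log2 fold change (beyond 1 either way), and 630 genes (4.60%) had an unadjusted p below 0.05. The list of the study for this contrast came from DESeq2 at the same limits. That is another method than limma on log2(TPM + 1), so the 0 does not repeat its test.

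The study lists 2 further genes for this contrast, and these too were chosen on the same tumors. Gm21887, a predicted gene, was at 1075, 518 and 1235 TPM in IgG1 tumors, against 366, 291 and 323 TPM after anti-PD-1. It was lower in every anti-PD-1 tumor, like the pair, and DOX/anti-PD-1 tumors had 680.4, 487 and 949 TPM. Spag5, which encodes a protein of the mitotic spindle, was at 36.6, 32.0 and 47.9 TPM in IgG1 tumors, against 69.6, 242 and 73.6 TPM after anti-PD-1. It was higher in every anti-PD-1 tumor, the opposite of the pair.

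The 6 tumors with doxorubicin were not used to choose the pair, so here the effect of the antibody was tested. For Hhipl2 the log2 fold change was -0.11 (95% confidence interval -1.47 to 1.24, limma adjusted p = 0.998, exact permutation p = 0.9, two-sided). For Glul it was 0.18 (95% confidence interval -1.56 to 1.91, limma adjusted p = 0.996, exact permutation p = 1). The groups overlapped in both genes. The intervals reach past a log2 change of 1 on both sides, so changes of that size in either direction were not excluded. The difference from the contrast that chose the pair was not tested. With 3 tumors against 3 the exact test cannot go below p = 0.1.

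Both values turned with 1 tumor. Without DOX/IgG1 replicate 1, the log2 fold change was 0.61 for Hhipl2 (limma adjusted p = 0.758) and -0.69 for Glul (limma adjusted p = 0.811). Without DOX/anti-PD-1 replicate 3, Glul was at -0.45 and Hhipl2 at 0.015. Over all 13946 genes tested, 0 (0%) passed both limits, or 3 without DOX/IgG1 replicate 1, 655 (4.70%) had an unadjusted p below 0.05 and 10.2% had groups apart, with limma.

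The remaining comparisons share the IgG1 or the anti-PD-1 tumors with the choice of the pair and were not tested. With doxorubicin and IgG1 against IgG1 alone, the log2 fold change was 0.21 for Hhipl2 and 0.23 for Glul, and the groups overlapped in both. Without DOX/IgG1 replicate 1 these were -0.52 and 1.10. Leaving out each tumor in turn gave -0.52 to 0.76 for Hhipl2 and -0.21 to 1.10 for Glul, so neither sign held. Here 5 of 13874 genes (0.0360%) passed both limits with limma, 1073 (7.73%) had an unadjusted p below 0.05 and 14.0% had groups apart. The 5 genes, named after their values were seen, were Bpifa2, Smr3a, Hist1h2af, Saa1 and Saa2. Bpifa2 and Smr3a were at 0 in every IgG1 tumor, so the minimum of 1 TPM let them in only through the DOX/IgG1 tumors and fixed their direction. Without DOX/IgG1 replicate 1 the count was 113, and without any 1 of the IgG1 tumors it was 0.

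With DOX/anti-PD-1 against anti-PD-1, the mean of Hhipl2 was 6.04 times as high, a log2 fold change of 2.45, and that of Glul 7.05 times as high, a log2 fold change of 2.50. All 3 DOX/anti-PD-1 tumors lay above all 3 anti-PD-1 tumors in both genes. Only 9 of 13736 genes had a higher log2 fold change than Hhipl2, and 7 a higher one than Glul. In 14.9% of the genes the groups lay apart, 1185 genes (8.63%) had an unadjusted p below 0.05 and 0 (0%) passed both limits with limma. The low anti-PD-1 tumors enter this comparison as well as the choice of the pair, so nothing is read from these places.

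The pair did not move together in every setting. Over the 12 tumors, Pearson's r of Hhipl2 with Glul on log2(TPM + 1) was 0.497 and Spearman's rho 0.441. In the 6 tumors without doxorubicin, which chose the pair, r was 0.930 and rho 0.943. In the 6 tumors with doxorubicin, r was -0.794 and rho -0.771. The tumor with the most Hhipl2 was the one with the least Glul there, DOX/IgG1 replicate 1, and without it r over 5 tumors was -0.446 and rho -0.600. Taken as deviations from the group means, r was -0.312 and rho -0.266. Without DOX/IgG1 replicate 1, r over 11 tumors was 0.749 and rho 0.600. Without anti-PD-1 replicates 2 and 3, the tumors farthest from the median of Hhipl2, r over 10 tumors was 0.0882 and rho 0.0424, so the relation over all tumors rests on these. These are descriptions with no p, since both genes were picked for being low in the same 3 tumors.

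**Figure D2:**
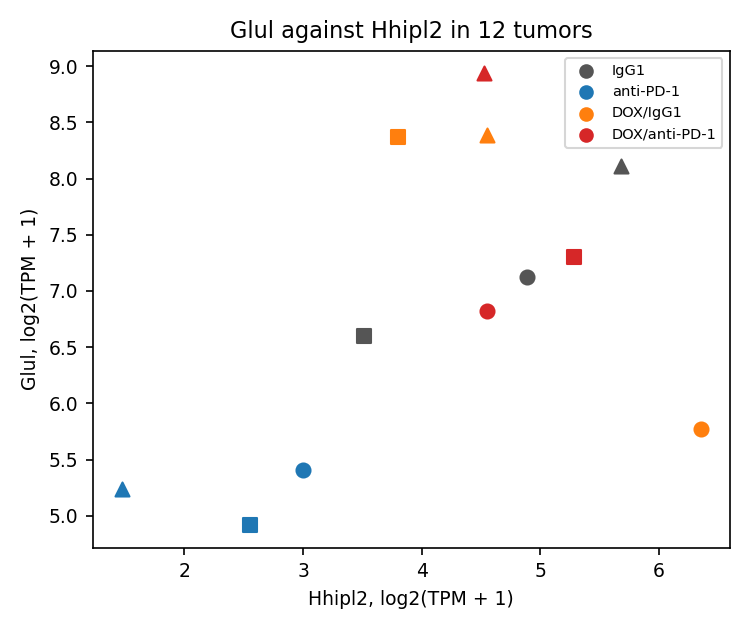
Glul against Hhipl2, both as log2(TPM + 1), in 12 tumors, colored by group and with the replicate number as the marker, as in the plot of levels by group (circle 1, square 2, triangle 3). The anti-PD-1 tumors lie at the lower left, and DOX/IgG1 replicate 1 lies at the lower right with high Hhipl2 and low Glul.

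Next, the genes most like each of the pair were sought among 14734 other genes at 1 TPM or more in at least 3 of 12 tumors. For Hhipl2 the 4 highest Pearson correlations over 12 tumors belonged to Xab2 (0.927), Lzts2 (0.905), Als2cl (0.904) and Cchcr1 (0.880). Spearman's rho was 0.818, 0.867, 0.853 and 0.853. Xab2, a factor of transcription-coupled DNA repair and splicing, had means of 34.0 ± 8.54 TPM (SD, n = 3) in IgG1, 20.6 ± 2.82 in anti-PD-1, 33.5 ± 5.61 in DOX/IgG1 and 31.9 ± 3.98 in DOX/anti-PD-1 tumors. Its range over groups was thus much narrower than that of Hhipl2. As deviations from the group means, r with Hhipl2 was 0.8001 for Xab2, 0.825 for Lzts2, 0.842 for Als2cl and 0.805 for Cchcr1. The lowest correlations were those of C5ar2, a receptor for complement C5a (-0.901), and Gabarap, a protein of autophagosomes (-0.858). C5ar2 was at 6.93 ± 2.79 TPM in IgG1 and 11.8 ± 5.38 TPM in anti-PD-1 tumors.

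For Glul the highest were Epb41l1 (0.924), Pla1a (0.916), Lrp1 (0.911) and D8Ertd82e (0.906), with rho of 0.902, 0.930, 0.923 and 0.909. Lrp1 encodes a large endocytic receptor and Pla1a a secreted phospholipase. Epb41l1, which links membrane proteins to the cytoskeleton, had means of 53.7 ± 11.4 TPM in IgG1, 27.8 ± 6.26 in anti-PD-1, 53.8 ± 17.3 in DOX/IgG1 and 55.4 ± 6.30 in DOX/anti-PD-1 tumors. As deviations from the group means, r with Glul was 0.812 for Epb41l1, 0.893 for Pla1a, 0.930 for Lrp1 and 0.983 for D8Ertd82e. The lowest were Clns1a (-0.898), a chaperone of spliceosome assembly, and Bpifb5 (-0.893), which was listed at 0 in some tumors and reached 7.98 TPM. No gene was among the 4 highest of both. The median r over all other genes was 0.0564 with Hhipl2 and 0.118 with Glul, and 33 genes were above 0.8 with Hhipl2 against 139 with Glul. With 12 tumors and this many genes, high values are found by search, and no p is given.

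**Figure D3:**
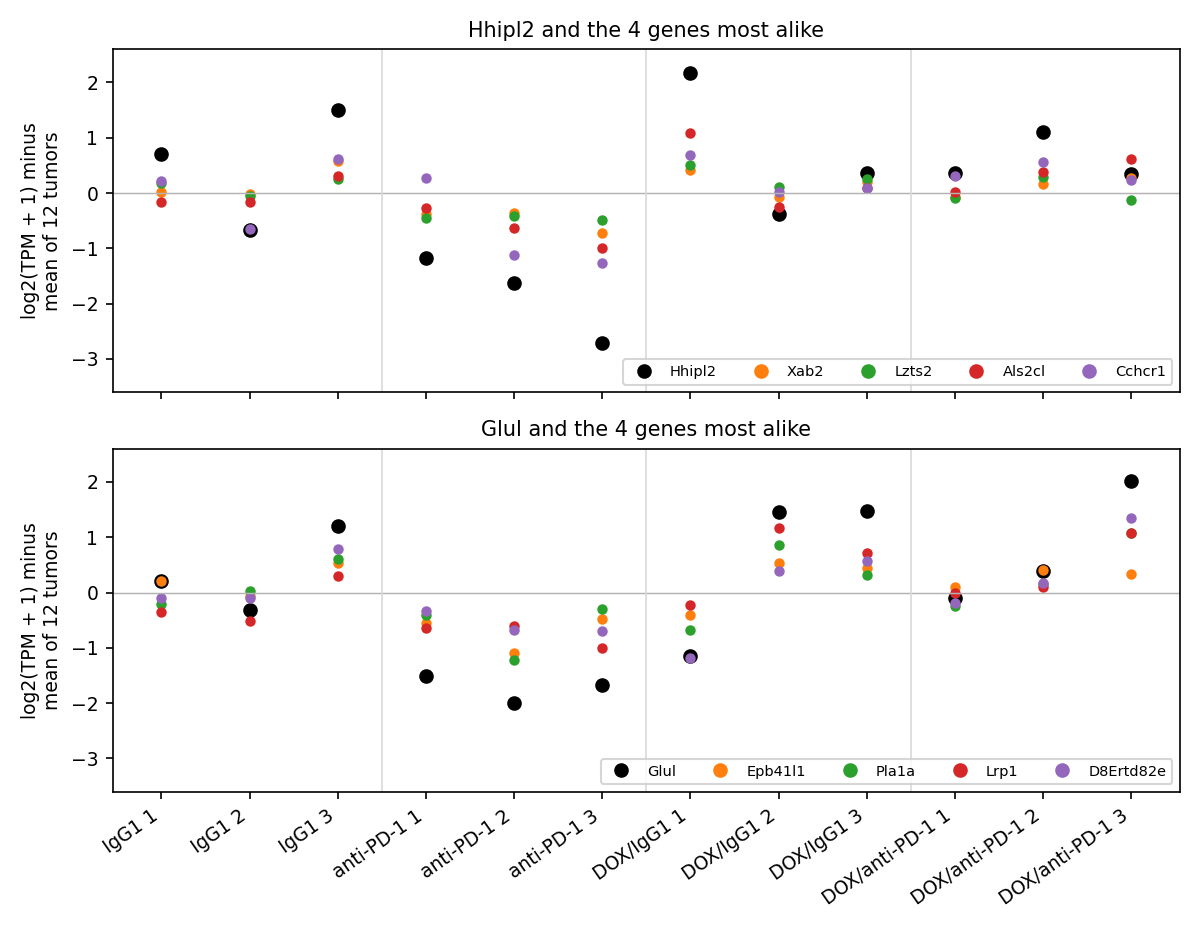
Deviation of log2(TPM + 1) from the mean of 12 tumors, by tumor, for Hhipl2 (top) and Glul (bottom), in black, and the 4 genes with the highest Pearson correlation with each, in color. Hhipl2 and Glul deviate more than their most alike genes in the anti-PD-1 tumors.

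The nearest protein-coding genes were read in the same tumors. Beside Hhipl2, Taf1a lies 8.017 kb before it and had means of 32.1 ± 12.0 TPM (SD, n = 3) in IgG1 and 24.9 ± 8.08 TPM in anti-PD-1 tumors, with overlap. Mia3 and Aida lie 48.662 and 92.739 kb before it, and their anti-PD-1 means were 435 and 33.1 TPM against 409 and 32.3 TPM in IgG1. On the other side, Dusp10 is 576.494 kb away, with 2.08 TPM in IgG1 and 2.49 TPM in anti-PD-1 tumors, followed by 1700056E22Rik (0 to 2.70 TPM in the 12 tumors) and Hlx (0 to 7.56 TPM). Beside Glul, Teddm2 on the minus strand overlaps its first 285 bases. The libraries were stranded, but whether the counting used strand is not given in the sources used here, and Teddm2 was at 1.92 TPM or less in every tumor. Teddm1a and Teddm1b did not exceed 0.62 and 1.80 TPM. On the other side of Glul, Zfp648 and Cacna1e did not exceed 0.86 and 2.23 TPM, and Ier5 was at 19.5 ± 0.555 TPM in IgG1 and 16.6 ± 4.30 TPM in anti-PD-1 tumors. Of these 12 neighbors, 1, Cacna1e, had every anti-PD-1 tumor below every IgG1 tumor, as did 854 of 13692 genes tested. Cacna1e reached 1 TPM in only 1 tumor and was not tested. Zfp648, 1700056E22Rik and the Teddm genes were also near 0, where a lower level is hard to see.

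Next come other genes of glutamine metabolism. Of 28 enzymes that use or make glutamine or glutamate, Glul left out, 24 were tested between anti-PD-1 and IgG1. None (0) was called with limma, 1 had an unadjusted p below 0.05 (4.60% of all genes did), and the median log2 fold change was -0.15 against -0.026 over all genes. The lower enzyme was Pfas, of purine synthesis, at 35.6 ± 3.53 TPM (SD, n = 3) in IgG1 and 23.2 ± 4.19 TPM in anti-PD-1 tumors. Gls2, which is abundant in liver, was at 0, 8.40 and 4.00 TPM in IgG1 tumors, against 1.08, 3.25 and 2.93 TPM after anti-PD-1. The asparagine synthetase Asns was at 30.8 ± 1.47 TPM in IgG1 and 37.4 ± 14.8 TPM in anti-PD-1 tumors.

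In the other comparisons 0 enzymes were called as well. In DOX/anti-PD-1 minus DOX/IgG1, 1 of 25 enzymes had an unadjusted p below 0.05 (4.70% of all genes), with a median of -0.13 against -0.037 over all genes. This was Oat, which links ornithine to glutamate, at 42.5 ± 0.885 TPM against 84.5 ± 21.6 TPM. Between DOX/IgG1 and IgG1, 2 of 25 did (7.73% of all genes), Oat and Gclc, and the median was 0.29 against 0.12 over all genes. Gclc, of glutathione synthesis, was at 35.7 ± 6.73 TPM against 16.6 ± 2.43 TPM. Of 24 enzymes tested in DOX/anti-PD-1 minus anti-PD-1, 2 did (8.63% of all genes), Glud1 and Cad, with a median of 0.34 against 0.11. Glud1, the glutamate dehydrogenase, was at 117 ± 7.45 TPM in DOX/anti-PD-1 and 70.1 ± 14.2 TPM in anti-PD-1 tumors, with a log2 fold change of 0.75 (limma adjusted p = 0.489).

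Transporters of glutamine and glutamate were 19, of which 16 were tested between anti-PD-1 and IgG1. None (0) was called, 3 had an unadjusted p below 0.05 with limma (4.60% of all genes), all lower, and the median was -0.17 against -0.026 over all genes. Slc1a2, a glutamate carrier, was at 19.8 ± 4.23 TPM (SD, n = 3) in IgG1 and 11.7 ± 2.64 TPM in anti-PD-1 tumors. Slc1a5, the main glutamine carrier of many tumor cells, was at 29.0 ± 10.0 TPM in IgG1 and 15.8 ± 3.04 TPM in anti-PD-1 tumors, with overlap. It was at 41.8 ± 13.7 TPM in DOX/anti-PD-1 tumors, where its log2 fold change against anti-PD-1 was 1.32 (limma adjusted p = 0.429). These groups lay apart, as they did in 14.9% of all genes tested, from which nothing is read here. Slc38a2 was at 110 ± 6.53 TPM in IgG1 and 130.3 ± 19.0 TPM in anti-PD-1 tumors, again with overlap. The amino acid exchanger Slc7a5 was at 59.2 ± 9.48 TPM in IgG1, 54.9 ± 5.35 TPM in anti-PD-1 and 29.6 ± 7.18 TPM in DOX/IgG1 tumors, and Slc7a7 at 12.6 ± 4.35 TPM in DOX/IgG1 against 23.0 ± 5.496 TPM in IgG1 tumors. These were the 2 of 16 tested with an unadjusted p below 0.05 between DOX/IgG1 and IgG1 (7.73% of all genes), where the median was -0.068 against 0.12. In DOX/anti-PD-1 minus DOX/IgG1 it was 0 of 17 (4.70% of all genes) with a median of 0.021 against -0.037. In DOX/anti-PD-1 minus anti-PD-1 it was 3 of 17 (8.63% of all genes) with a median of 0.18 against 0.11. Slc38a7 was at 27.3 ± 4.09 TPM and 17.5 ± 2.95 TPM in the last pair of groups. With limma 0 transporters were called in these comparisons too.

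The Hedgehog pathway was described because of the family of Hhipl2. The relatives themselves were almost silent. Hhip stayed at or below 0.55 TPM and Hhipl1 at or below 1.52 TPM in every tumor, and neither was tested. Of 22 pathway genes, 12 were tested between anti-PD-1 and IgG1 and 1 had an unadjusted p below 0.05 with limma (4.60% of all genes), with a median of -0.28 against -0.026 and 0 called. This was Boc, a Hedgehog coreceptor, at 88.0 ± 18.6 TPM (SD, n = 3) in IgG1 and 50.1 ± 9.12 TPM in anti-PD-1 tumors. Of the 12 genes, 3 were higher and 9 lower, 4 of the latter with groups apart, as were 854 of 13692 genes. Of 16 genes tested in DOX/anti-PD-1 minus DOX/IgG1, 3 had an unadjusted p below 0.05 (4.70% of all genes), with a median of -0.39 against -0.037 and 0 called. Of these, the transcription factor Gli3 was at 1.11, 3.20 and 1.69 TPM against 5.54, 3.93 and 7.43 TPM. After adding 0.1 TPM instead of 1, only 1 gene had an unadjusted p below 0.05 in this comparison with limma. Between DOX/IgG1 and IgG1, 3 of 15 did (7.73% of all genes), with a median of 0.24 against 0.12. In 2 of these 3, all IgG1 tumors were below 1 TPM, so the filter fixed their direction. Each IgG1 tumor had Hhatl listed at 0, and the DOX/IgG1 tumors had 1.30, 20.9 and 12.1 TPM. The ligand Dhh, the exception with 1.12 TPM in IgG1 replicate 1, was at 4.22 ± 1.23 TPM against 0.513 ± 0.566 TPM. For DOX/anti-PD-1 minus anti-PD-1 it was 1 of 12, Gas1, at 23.9 ± 12.6 TPM against 9.91 ± 1.69 TPM, with a median of 0.34 against 0.11 (unadjusted p below 0.05 in 8.63% of all genes).

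Known inducers of Glul were covered by lists of their genes. The glucocorticoid list holds the receptor gene Nr3c1 and 8 response genes. All 9 were tested and 0 had an unadjusted p below 0.05 in any of the 4 comparisons with limma (4.60%, 4.70%, 7.73% and 8.63% of all genes). Between anti-PD-1 and IgG1, 7 of 9 were lower, 2 of them with groups apart, as were 854 of 13692 genes. The list medians were -0.30 for anti-PD-1 minus IgG1, -0.12 for DOX/anti-PD-1 minus DOX/IgG1, 0.23 for DOX/IgG1 minus IgG1 and 0.065 for DOX/anti-PD-1 minus anti-PD-1. Over all genes the medians were -0.026, -0.037, 0.12 and 0.11. The last median of the list turned to -0.053 after scaling by the median of ratios. The beta-catenin list holds Ctnnb1, the gene of beta-catenin itself, and 10 targets. Of these 11, 8 were tested between anti-PD-1 and IgG1, with 1 higher at an unadjusted p below 0.05 (4.60% of all genes) and a median of -0.071. In each of the other comparisons 9 were tested and 1 had an unadjusted p below 0.05 (4.70%, 7.73% and 8.63% of all genes), with medians of -0.43, 0.48 and -0.065 in the same order. Each time this was the stem cell marker Lgr5, at 9.19 ± 6.09 TPM (SD, n = 3) in anti-PD-1, 8.07 ± 3.08 TPM in DOX/IgG1, 3.01 ± 1.18 TPM in IgG1 tumors and lowest, 2.83 ± 1.82 TPM, in DOX/anti-PD-1 tumors. After adding 0.1 TPM instead of 1, 0 genes of this list had an unadjusted p below 0.05 with limma in the comparisons of DOX/anti-PD-1 tumors. Between anti-PD-1 and IgG1 the values of Lgr5 overlapped. Of the 8 genes tested there, 3 were higher and 5 lower, 1 of the latter with groups apart (854 of 13692 genes were lower in this way). In these lists 0 genes were called.

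**Figure D4:**
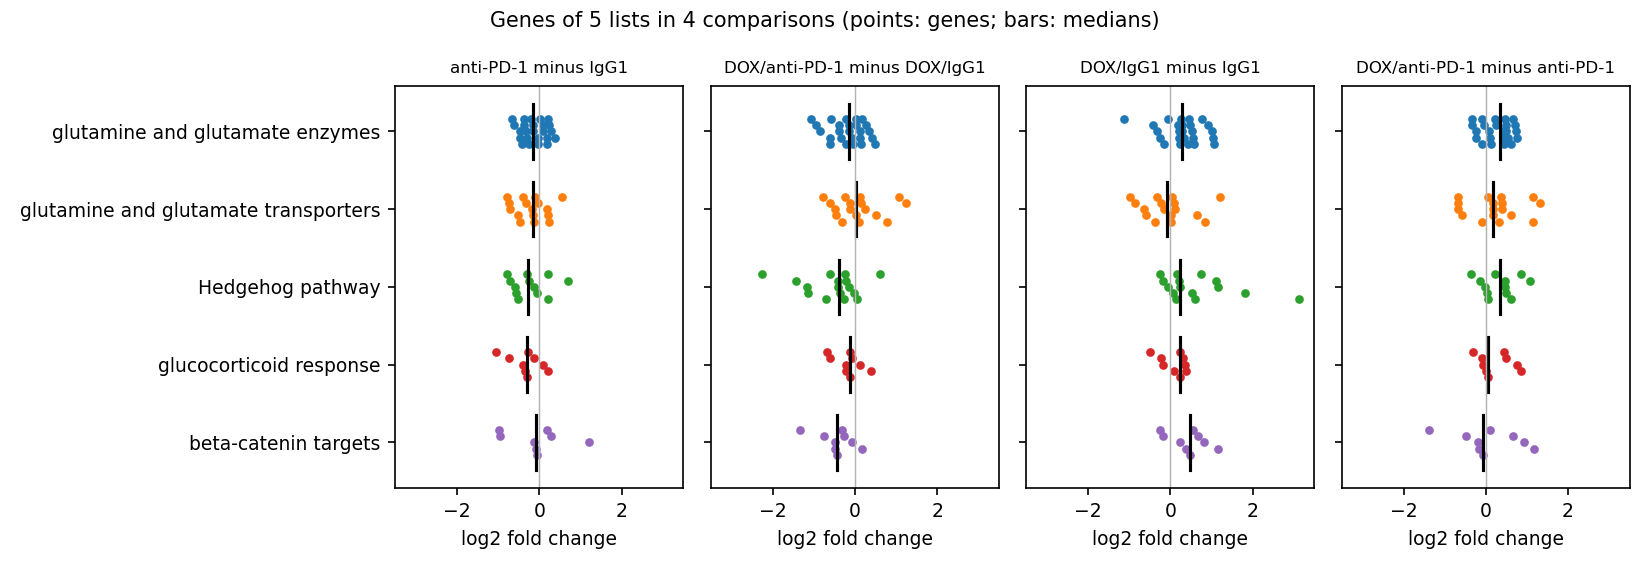
Log2 fold changes of the tested genes of 5 lists (rows) in the 4 comparisons (panels), with 1 point per gene and a bar at the median. Most points lie between -1 and 1, and none of the genes passed both limits.

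Scaling by the median of ratios moved the median of all genes by -0.11 in DOX/IgG1 minus IgG1 and by -0.12 in DOX/anti-PD-1 minus anti-PD-1. The pathway lists kept the sign of their medians under it, except the glucocorticoid response list in the last comparison.

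Markers of 9 cell types were read in the same tumors, and the most abundant of each is named by the mean of all 12. The luminal epithelial list, for the cells in which these tumors arise, summed to 9129 to 14253 TPM in IgG1 and 11397 to 14124 TPM in anti-PD-1 tumors, with the milk protein gene Csn3 as its most abundant gene and no marker at 0. In the DOX/IgG1 tumors it summed to 6017, 7397 and 7010.3 TPM. These values were all below the IgG1 and anti-PD-1 tumors, and the DOX/anti-PD-1 tumors had 10798, 13358 and 5970.4 TPM, the last being the lowest of all 12. In anti-PD-1 minus IgG1, 8 of 10 markers were negative, 2 with an unadjusted p below 0.05 in limma (4.60% of all genes), and the median was -0.21 against -0.026 over all genes. The part of luminal cells in the levels of the pair was not tested.

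The fibroblast list was read next. Its 10 markers, with Postn as the most abundant, summed to 1659, 1788 and 2872 TPM in IgG1 and to 1542, 1306 and 1055 TPM in anti-PD-1 tumors. The DOX/IgG1 tumors had 860.2, 2214 and 1649 TPM, and the DOX/anti-PD-1 tumors 1604, 2068 and 1983 TPM. All 3 anti-PD-1 tumors were thus below the IgG1 and the DOX/anti-PD-1 tumors, and DOX/IgG1 replicate 1, low in Glul but the highest in Hhipl2, was the lowest of all. In anti-PD-1 minus IgG1, 10 of 10 markers had a negative log2 fold change, 1 with an unadjusted p below 0.05 in limma (4.60% of all genes), and the median was -0.40 against -0.026. In DOX/anti-PD-1 minus anti-PD-1, 10 of 10 were positive, 5 with an unadjusted p below 0.05 (8.63% of all genes), with a median of 0.63 against 0.11. No marker was at 0, and 0 were called.

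Endothelial markers, led by Pecam1, summed to 150, 148 and 191 TPM in IgG1 and to 127, 119 and 132 TPM in anti-PD-1 tumors, also without overlap. The DOX/IgG1 tumors had 167, 229 and 124 TPM, and the DOX/anti-PD-1 tumors 150.3, 199 and 137 TPM, the latter above the anti-PD-1 tumors. In anti-PD-1 minus IgG1, 8 of 10 markers were negative, 1 with an unadjusted p below 0.05 in limma (4.60% of all genes), with a median of -0.34 against -0.026. For DOX/anti-PD-1 minus anti-PD-1, 9 of 10 were positive, 2 with an unadjusted p below 0.05 (8.63% of all genes), with a median of 0.35 against 0.11. The part of fibroblasts and endothelial cells in the levels of the pair was not tested.

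Fat and muscle are tissues rich in Glul. Adipocyte markers, led by Cfd, summed to 132 to 421 TPM in IgG1 and to 151 to 223 TPM in anti-PD-1 tumors, with overlap, and 9 of 10 were negative, 0 with an unadjusted p below 0.05 in limma (4.60% of all genes), with a median of -0.55 against -0.026. In DOX/anti-PD-1 tumors they summed to 319 to 1004 TPM, above anti-PD-1, with 10 of 10 positive, 8 of them at an unadjusted p below 0.05 with limma (8.63% of all genes), and a median of 1.38 against 0.11. In the DOX/IgG1 tumors the sums were 202 to 1135 TPM. Of the adipocyte markers, 2 were at 0 in IgG1 replicate 1. Skeletal muscle markers, led by Acta1, differed widely within every group, from 44.3 to 602 TPM in IgG1 and from 35.4 to 642 TPM in anti-PD-1 tumors. They spanned 74.0 to 215.5 TPM in DOX/IgG1 and 13.2 to 1033 TPM in DOX/anti-PD-1 tumors. Of the 10 markers, 8 were at 0 in the lowest of these, DOX/anti-PD-1 replicate 2. The muscle medians were -0.56 for anti-PD-1 minus IgG1 (-0.026 over all genes) and -0.075 for DOX/anti-PD-1 minus anti-PD-1 (0.11 over all genes). The part of fat and muscle was not tested.

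Macrophage markers, led by C1qa, summed to 384 to 463 TPM in IgG1 and 342 to 395 TPM in anti-PD-1 tumors, with overlap, and to 382 to 499 TPM in DOX/IgG1 and 370 to 499 TPM in DOX/anti-PD-1 tumors. Their medians were -0.24 for anti-PD-1 minus IgG1 (-0.026 over all genes) and 0.28 for DOX/anti-PD-1 minus anti-PD-1 (0.11 over all genes). T cell markers were low, with 9 of 10 found in the tables and sums of 10.3 to 26.8 TPM in IgG1 and 10.3 to 22.0 TPM in anti-PD-1 tumors. Their sums were 16.6 to 63.0 TPM in DOX/IgG1 and 23.5 to 39.3 TPM in DOX/anti-PD-1 tumors, the latter above anti-PD-1. Of 6 markers tested in anti-PD-1 minus IgG1, 4 were lower and 2 higher, with a median of -0.415 against -0.026 over all genes. The only 1 with an unadjusted p below 0.05 in limma (4.60% of all genes) was higher. Of 6 tested in DOX/anti-PD-1 minus anti-PD-1, 4 were higher and 2 lower, with a median of 0.98 against 0.11. Here 0 had an unadjusted p below 0.05 (8.63% of all genes). Up to 4 of the 9 were at 0 in a tumor. Cd3e was the most abundant over all 12 tumors, though not in each. Myoepithelial markers, led by Acta2, summed to 207 to 541 TPM in IgG1, 244 to 371 TPM in anti-PD-1, 239.8 to 1215 TPM in DOX/IgG1 and 505 to 694 TPM in DOX/anti-PD-1 tumors. The last group was above anti-PD-1, with 10 of 10 markers positive, 5 at an unadjusted p below 0.05 with limma (8.63% of all genes), and a median of 0.80 against 0.11. Salivary gland markers, led by Amy1, summed to 6.41 to 23.8 TPM in IgG1, 10.3 to 37.5 TPM in anti-PD-1 and 20.7 to 29.9 TPM in DOX/anti-PD-1 tumors. The DOX/IgG1 tumors had 65.1, 117 and 141 TPM, above all others, and up to 8 of 10 markers were at 0 in a tumor. Bpifa2 and Smr3a, named above, belong to this list.

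**Figure D5:**
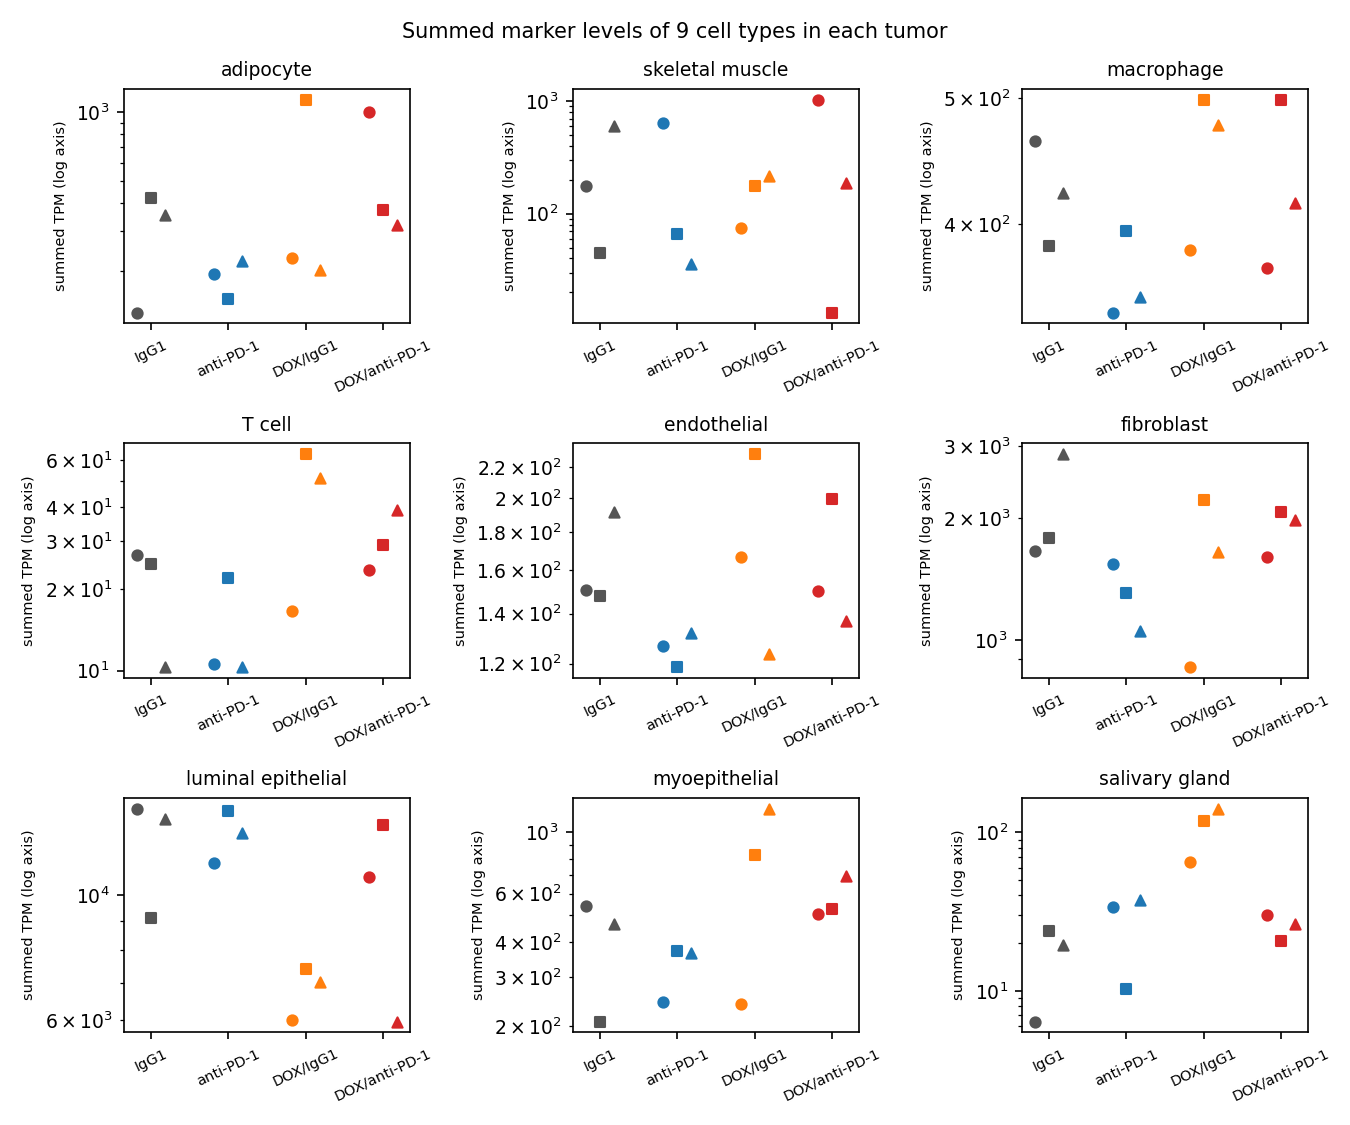
Summed TPM of the markers of 9 cell types (panels, log axes that do not start at 0) in each of 12 tumors by group, with the replicate number as the marker (circle 1, square 2, triangle 3). Fibroblast and endothelial sums are lower in all anti-PD-1 tumors than in the IgG1 tumors, while the skeletal muscle sums spread over more than a factor of 10 in the anti-PD-1 group.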

How the data were processed

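The authors sequenced RNA of 12 whole PyMT tumors, trimmed reads by skewer, mapped them by STAR (mm10) and estimated gene levels by RSEM, whose versions are not given in the sources used here. For each tumor they deposited log2(TPM + 1) of 21960 genes. The values alone cannot tell TPM from FPKM, and TPM was taken from the study's naming. The values were converted back where TPM are given. Groups came from the labels. Genes at 1 TPM or more in at least 3 tumors of a comparison were tested with limma 3.58.1 (R 4.3.3; lmFit, eBayes with trend, two-sided, Benjamini-Hochberg adjustment) on log2(TPM + 1), each time in the 6 tumors of 2 groups. Called genes had an adjusted p below 0.1 and a log2 fold change beyond 1 either way. The plan named edgeR for count files, which was not used because these are not counts. Exact permutation tests were two-sided. Log2 fold changes of low genes are understated on this scale. The tests were tested on simulated data, and the results of that check are not given here.

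The pair and the gene lists were chosen with earlier results of these data known. Named were the pair, 2 genes listed with it, 9 relatives and glutamine genes, in each pathway list and comparison the called genes and up to 2 with the largest change among those at an unadjusted p below 0.05 with groups apart, 3 neighbors on each side, the 4 most and 2 least alike genes, and the most abundant marker of each cell type. Cad and the 5 genes called between DOX/IgG1 and IgG1 tumors were named after their values were seen. Some genes that this rule covers are not reported here. Identifiers of 21860 genes matched GENCODE vM21. Promoter sequences are from RefSeq. Proteins were not analysed here. Alternatives were another pseudocount (0.1 TPM), other filters, scaling, 1 fit of all tumors, no trend, a block for the replicate number and leaving out each tumor. The correlation of the pair without DOX/IgG1 replicate 1 in the tumors with doxorubicin was added after seeing the data.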

Additional observations from a re-analysis of the deposited data

Results flagged for a closer look

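Oat had doxorubicin differences of opposite sign in the 2 antibody settings, and neither passed the limits with limma. The mean of log2(TPM + 1) was higher by 0.91 in DOX/IgG1 than in IgG1 tumors, with all 3 tumors above, and with anti-PD-1 given in both groups the doxorubicin difference was -0.23, with all 3 below. Groups lay apart in 14.0% and 14.9% of all genes tested in these comparisons. The difference between the 2 values was not tested. No single tumor was tested as standing apart, since groups of 3 are too small.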

How the results depend on the processing

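Hhipl2 and Glul did not pass the limits in DOX/anti-PD-1 minus DOX/IgG1 under any alternative run, with limma adjusted p from 0.758 to 1.000 for Hhipl2 and from 0.811 to 1.000 for Glul. Their direction changed in 5 of the 12 runs that left out 1 tumor. In 10 of the other 14 runs the difference of means was the same by construction. Without 1 tumor, the log2 fold change ranged from -0.66 to 0.61 for Hhipl2 and from -0.69 to 0.61 for Glul, and the cause was not tested. For the untested differences, all 48 alternatives moved the value by less than 1 SD of the tumors, which is wide. Between DOX/IgG1 and IgG1, leaving out 1 tumor turned the sign of both genes, from -0.52 to 0.76 for Hhipl2 and from -0.21 to 1.10 for Glul. Between anti-PD-1 and IgG1, leaving out 1 tumor gave -2.94 to -1.86 for Hhipl2 and -2.43 to -1.67 for Glul.

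The count of genes called between anti-PD-1 and IgG1, 0 in the report, was 2 with the filter of 1 TPM in every tumor of a group, 1 without the trend and 0 to 4 without 1 tumor. In DOX/anti-PD-1 minus DOX/IgG1 it was 3 with that filter, 3 with scaling by the median of ratios, 2 with all 12 tumors in 1 fit, 3 without the trend and 0 to 3 without 1 tumor. In DOX/anti-PD-1 minus anti-PD-1 it was 3 without the trend and 0 to 4 without 1 tumor. Between DOX/IgG1 and IgG1 it was 5 in the report, 13 without the trend and 0 to 113 without 1 tumor. In the pathway lists 0 genes were called under the 4 alternatives run for them (the pseudocount, both filters and scaling), and leaving out tumors, no trend, 1 fit and the block were not run for the lists. There the counts at an unadjusted p below 0.05 were higher in 3 of 80 and lower in 8 of 80, beyond a factor of 1.5. With scaling, the enzymes went from 1 to 0 between anti-PD-1 and IgG1 and from 2 to 4 between DOX/IgG1 and IgG1. In DOX/anti-PD-1 minus anti-PD-1 they went from 2 to 1 with scaling and with the pseudocount. The transporters went from 0 to 1 in DOX/anti-PD-1 minus DOX/IgG1 with scaling. The change in the Hedgehog list is given with that list. The beta-catenin list went from 1 to 0 in DOX/anti-PD-1 minus DOX/IgG1 with the pseudocount and with no filter. In DOX/anti-PD-1 minus anti-PD-1 it went from 1 to 0 with each of these. There it went from 1 to 2 with the filter of 1 TPM in every tumor of a group. The cause of these changes was not tested. The unknown depth limits what can be said of low genes.

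Pairing by replicate number was not used in the report. Deviations of same-numbered tumors correlated with -0.0963 to 0.134, 4 of 18 pairs were over 0.1, and 8 of 12 tumors had their best correlation across groups with a tumor of the same number, where 3 of the 9 tumors of other groups share it. With the replicate block, 2 genes were called between DOX/IgG1 and IgG1, and the block changed no other count of called genes. The log2 fold changes of the pair were -0.11 and 0.18, which a block cannot alter with 3 tumors in each group.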
